A study of Mus musculus with 272 samples.

Results

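The 18S ribosomal RNA is the RNA of the small (40S) ribosomal subunit, and it is followed here as 1 row, Rn18s, among 15771 genes with distinct values measured in mouse oocytes and preimplantation embryos. The row was chosen by its symbol. A second symbol, Rn18s-rs5, which RefSeq lists as an 18S pseudogene, carried identical values in all 272 libraries, and the pair was counted once. Values are given as the percent of a library's reads, which is the deposited CPM (a gene's reads per 1 M reads of the library) expressed per 100 reads.

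The study covers 8 stages: the germinal vesicle (GV) oocyte, the metaphase II (MII) oocyte, the zygote, the 2-cell, 4-cell and 8-cell embryo, the morula and the blastocyst. Per the labels, about 100 oocytes or embryos per gradient were lysed with 100 μg/ml cycloheximide, which holds ribosomes on their transcripts, and spun through a sucrose gradient of 10 to 40% that was cut into 10 equal fractions. Each stage has 3 gradients (A, B and C) and 4 transcriptome libraries from pools of 20 oocytes or embryos, which makes 240 fraction libraries and 32 transcriptome libraries. The labels give no strain, genotype or age, every gradient lysate had cycloheximide, and each library pools many oocytes or embryos. Whether pools came from separate collections is not stated for the gradients, so p-values measure the spread between these samples, which may be partly technical.

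Ribosomal RNA is copied from the ribosomal DNA repeats in the nucleolus by RNA polymerase I, cut out of a long precursor by processing factors, and assembled with ribosomal proteins into the 40S and 60S subunits. A growing mouse oocyte stores ribosomes, ribosomal RNA synthesis stops in the fully grown oocyte, and the embryo resumes it after its own genome is switched on. In a sucrose gradient free RNA and small particles stay at the top, followed by the 40S and 60S subunits, the 80S monosome and then polysomes, so the 18S RNA marks where small subunits and ribosomes are. Mature 18S RNA has no poly(A) tail, and the labels give the sequenced molecule as polyA RNA amplified with a Smart-seq kit.

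Sequence of the annotated copy is shown as context, and it does not tell which molecules were counted. The table's Rn18s-rs5 is listed by RefSeq (GRCm38.p6) with the synonym Gm42418, and GENCODE M21 holds 1 transcript of the gene Gm42418, of 1831 bases. Mature 18S RNA carries no tail for an oligo(dT) primer, so the stretch of this transcript with its longest run of A is shown. That run was 6 bases, at bases 210 to 215, shown in capitals within bases 180 to 245.
run of A: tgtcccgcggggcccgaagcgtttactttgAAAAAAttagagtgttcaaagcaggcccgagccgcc
A run of at least 6 A occurred on the same strand in 43.4% of windows of that length, the first 1831 bases of the 46287 GENCODE transcripts at least as long. How 18S molecules entered libraries of polyA RNA was not tested. GENCODE M21 also lists a transcript of 923 bases on the opposite strand, AY036118, which is complementary to bases 156 to 1078 of the Gm42418 transcript, and since the labels state no strand setting, reads of both strands cannot be told apart.

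Library depth, as reads recovered from the CPM steps, was 11.2 to 24.3 M for transcriptomes and 0.0102 to 43.2 M for fractions, with fraction 1 the shallowest. Rn18s had 1639 or more reads in every transcriptome library. It had 69 and 103 reads in fraction 1 of GV gradients A and B, and 2009 or more in every other fraction library. Counting error was thus small beside the spread between gradients, except in fraction 1 of GV gradients A and B. In transcriptomes the 4 lists of stage markers matched the labels, though the trophectoderm marker Elf5 is not in the table. The 8 oocyte markers summed to between 22178 and 24567 CPM in GV transcriptomes against 99.2 to 155 CPM in blastocysts, and the 7 markers of the 2-cell embryo to between 2489 and 3231 CPM at the 2-cell stage. Fractions were less clear: oocyte markers reached 3431 CPM in a 4-cell fraction and trophectoderm markers 829 CPM in a 2-cell fraction. Markers of the 2-cell embryo reached 815 CPM in an MII fraction, against 224 to 3696 CPM in 2-cell fractions. Among markers of other cells, none of the 5 fibroblast genes is in the table, and 3 of 8 cumulus or granulosa genes and 2 of 6 blood genes are. The cumulus or granulosa genes summed to 68.9 CPM at most in any transcriptome and 0.227 CPM at most from the 4-cell stage on. In fractions they reached 378 CPM, in GV oocytes. The blood genes Hba-a1 and Hba-a2 were at 0 in GV, MII and zygote transcriptomes and summed to between 20.6 and 159 CPM from the 2-cell stage to the morula, and they reached 415 CPM in a 4-cell fraction. Their part in the results was not tested. The labels number the fractions without naming the top of the gradient. The small RNA Rn7sk, the 7SK RNA that restrains transcription elongation in the nucleus, was highest in fraction 1 in 23 of 24 gradients, and low numbers are called light and high numbers heavy here. The exception was a GV gradient.

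Along the gradients, the 18S share of reads differed in shape between stages. Each fraction and each transcriptome is a library scaled to its own total, so more 18S RNA and less of the other RNA captured cannot be told apart, and neither can fewer cells and less RNA per cell. In GV oocytes, MII oocytes and zygotes it was high in fraction 1, fell to a minimum in fractions 2 to 4 and climbed again toward fraction 10. In 2-cell embryos fraction 1 also stood above fraction 2 in every gradient. The mean of fractions 7 to 10 was 1.56 to 1.99 times that of fractions 2 to 4 there. In 4-cell embryos the fraction means ran from 3.47% in fraction 9 to 7.13% in fraction 3. In 8-cell embryos the mean was highest in fraction 5 (2.60%) and lowest in fraction 7 (0.846%). In morulae and blastocysts the mean share was highest in fraction 1, though some single gradients peaked in fraction 2 or 3. The mean share at the peak exceeded that at the lowest fraction by 11.7-fold in GV oocytes, 9.60-fold in MII oocytes, 7.21-fold in zygotes, 2.97-fold in 2-cell, 2.05-fold in 4-cell and 3.08-fold in 8-cell embryos, 5.91-fold in morulae and 12.8-fold in blastocysts.

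In GV oocytes the 18S share of fraction 1 was 0.659, 0.434 and 0.437% in gradients A, B and C. In fraction 4, where the mean was lowest, it was 0.0586, 0.0186 and 0.0534%, with gradient B lower still in fraction 3 (0.0177%), and it reached 0.316, 0.292 and 0.352% in fraction 9. All 3 gradients were thus higher at both ends than in fraction 4, with no overlap. Fraction 1 of gradients A and B held only 0.0102 and 0.0231 M reads, with 69 and 103 reads of Rn18s, while gradient C had 7.66 M reads there. In MII oocytes fraction 2 held 0.144, 0.155 and 0.105% and fraction 10 held 2.34, 0.627 and 0.915%. The lowest value of the stage, 0.0413%, was in fraction 4 of gradient A, and fraction 1 again stood above fraction 2 in all 3 gradients, at 1.39, 0.680 and 0.572%. In zygotes fraction 2 held 0.515, 0.119 and 0.260%, and fraction 10 held 1.69, 1.68 and 3.07%. Fraction 10 exceeded fraction 2 in every zygote gradient, and gradient B was the lowest of the 3 in 9 of 10 fractions.

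In 2-cell embryos the share of fraction 1 was 4.82, 6.30 and 4.25%, that of fraction 2 was 2.23, 1.53 and 1.41%, and that of fraction 5 was 4.55, 3.01 and 6.43%. Fractions 2 to 4 were lower than fractions 5 and 6 in every gradient, and the fall at the heavy end differed between gradients, with 3.96, 0.445 and 2.27% in fraction 10. In 4-cell embryos the gradients stood apart from each other. Gradient A averaged 7.90% over its 10 fractions, B 4.81% and C 2.46%, and A was the highest of the 3 in 8 of 10 fractions. The highest single value of the data set among fractions was 11.7%, in fraction 8 of 4-cell gradient A, where gradients B and C had 3.78 and 1.89%. In 8-cell embryos gradient A, with a mean of 2.92%, was above gradients B (1.03%) and C (1.09%) in all 10 fractions.

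In morulae fraction 1 held 3.04, 1.33 and 2.64% and fraction 2 held 2.29, 1.98 and 1.75%. Fraction 6 fell to 0.0635, 0.433 and 0.690%, below every value of fractions 1 to 5 in these gradients. In blastocysts fraction 1 held 2.57, 1.11 and 2.2% and fraction 3 held 0.444, 1.60 and 3.05%, the peak of gradients B and C. Fraction 9 held 0.279, 0.1 and 0.0787%, and fraction 10 held 0.980, 0.480 and 1.24%. Fraction 10 was thus above fraction 9 in all 3 blastocyst gradients. Single fractions of 1 gradient also dropped out of line, such as fraction 4 of blastocyst gradient B at 0.175% where A and C had 1.21 and 1.77%.

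**Figure D1:**
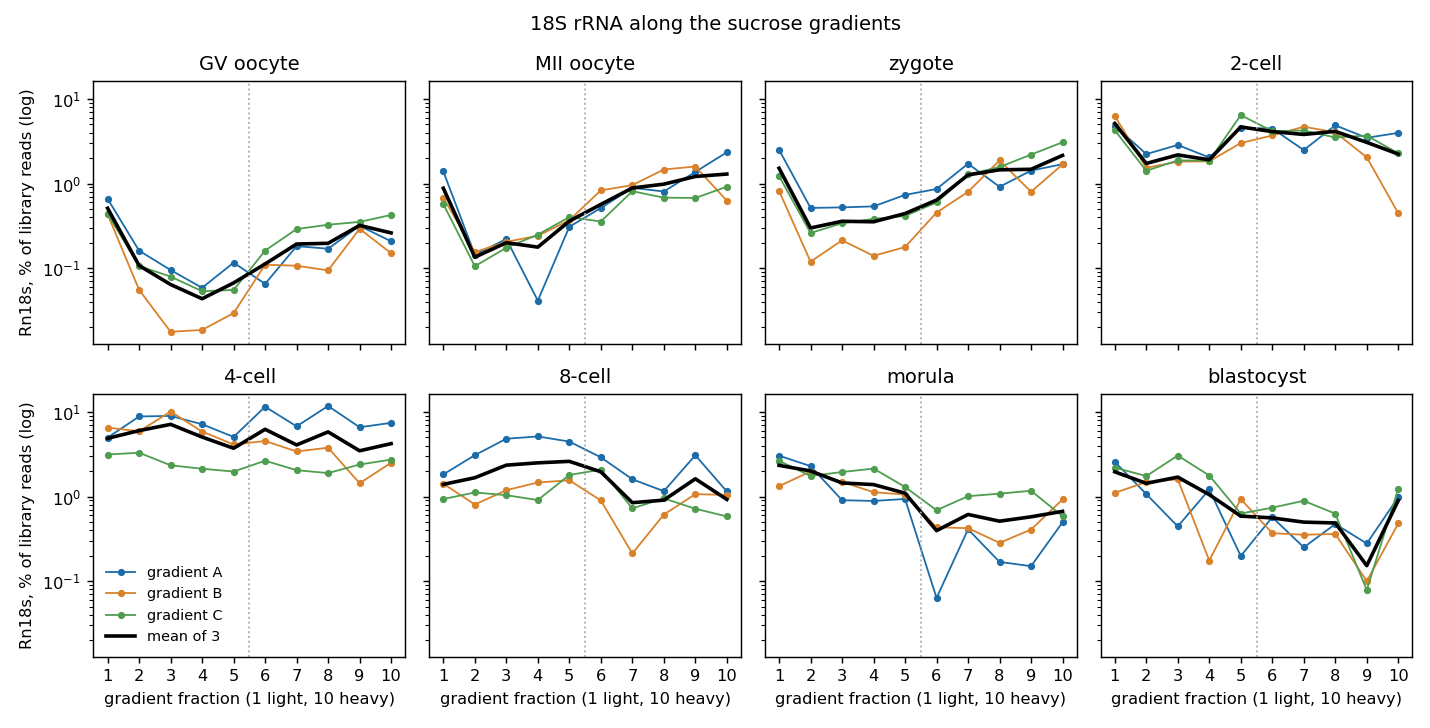
Share of library reads from Rn18s (percent, log axis) against gradient fraction for the 8 stages; coloured lines are gradients A, B and C, the black line is their mean, and the dotted line separates fractions 1 to 5 from 6 to 10. The first 3 stages dip at fractions 2 to 4 and rise toward fraction 10. The morula and blastocyst are higher on average over fractions 1 to 5 than over 6 to 10.

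Whether the share depended on the fraction was tested within each stage by limma's F test on log2(CPM + 1), fitted on all genes, with a call at a Benjamini-Hochberg adjusted p under 0.05 and a range of fraction means of at least 1 on the log2 scale. The 18S RNA was called in GV oocytes (range 3.69, adjusted p = 4.2e-05; 9.42% of genes were called), MII oocytes (3.10, adjusted p = 4.5e-06; 16.7%), zygotes (3.03, adjusted p = 8.71e-05; 16.8%), morulae (3.04, adjusted p = 0.000244; 17.7%) and blastocysts (3.82, adjusted p = 0.000183; 8.6%). It was not called in 2-cell (1.67, adjusted p = 0.194; 43.7% of genes called), 4-cell (1.07, adjusted p = 1; 35%) or 8-cell embryos (1.89, adjusted p = 0.344; 28.1%), the 3 stages where the largest shares of all genes were called. With the gradient as a block, limma also called 2-cell (adjusted p = 0.0142) and 8-cell embryos (adjusted p = 0.0434). Replicates were left out by letter, at all stages at once, so a comparison of stages then loses 1 gradient or pool from each stage; the 2-cell pools, whose letters differ, were left out on their own. The call along the fractions was then lost in GV oocytes (without B, adjusted p = 0.0967), zygotes (without B, 0.0971; without C, 0.0652), morulae (without A, 0.188, range 1.78) and blastocysts (without C, 0.244), and gained at the 2-cell stage (without A, 0.0366, range 2.36). The call in MII oocytes held without any 1 letter. On recovered reads, edgeR did not call GV oocytes (range 2.59, adjusted p = 0.385; 3.8% of genes called) and called 4-cell embryos (range 4.29, adjusted p = 2.78e-06; 67.9%).

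Comparing 1 fraction with the mean of the other 9 placed the extremes, and over the 80 such comparisons between 0 and 16.9% of genes were called. Fraction 1 was higher in GV oocytes (2.16 ± 0.52, log2 change ± SE, adjusted p = 0.0016; 16% of genes were called), morulae (1.60 ± 0.52, adjusted p = 0.0218; 13.6%) and blastocysts (1.66 ± 0.52, adjusted p = 0.0244; 7.44%). Fraction 2 was lower in MII oocytes (-2.04 ± 0.52, adjusted p = 0.00858; 3.88%), fraction 10 was higher in zygotes (1.68 ± 0.52, adjusted p = 0.0406; 3.9%), and fraction 9 was lower in blastocysts (-2.58 ± 0.52, adjusted p = 0.000521; 1.36%). No single fraction was called by limma at the 2-cell, 4-cell or 8-cell stage, where 0, 0 and 1 of 10 fractions had an unadjusted p under 0.05. With the gradient as a block, 2 fractions were called in GV oocytes, 3 in MII oocytes, 2 in zygotes and 3 in morulae. Every one of the 6 calls was lost in at least 1 fit that left a letter out: GV oocytes without B (1.89, adjusted p = 0.0738), MII oocytes and zygotes without B or C, morulae without A or C, blastocyst fraction 1 without A, B or C, and blastocyst fraction 9 without C (-1.89, adjusted p = 0.383).

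The heavy side (mean CPM of fractions 6 to 10) was then set against the light side (fractions 1 to 5) of the same gradient. In MII oocytes the heavy side held 1.18, 1.09 and 0.688% and the light side 0.421, 0.330 and 0.300%, so the heavy share exceeded the light one 2.81-, 3.32- and 2.29-fold. In zygotes the ratio was 1.37, 3.82 and 3.32, and in GV oocytes 0.864, 1.35 and 2.13. At the 2-cell stage the sides were nearly level, with ratios of 1.17, 1.03 and 1.13, and at the 4-cell stage they were 1.26, 0.482 and 0.910. In all 3 gradients the 18S share was lower on the heavy side at the 8-cell stage (0.512, 0.596 and 0.872), in morulae (0.160, 0.354 and 0.464) and in blastocysts (0.465, 0.314 and 0.380). The direction was therefore the same in every gradient of MII, zygote, 2-cell, 8-cell, morula and blastocyst samples and mixed in GV oocytes and 4-cell embryos.

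**Figure D2:**
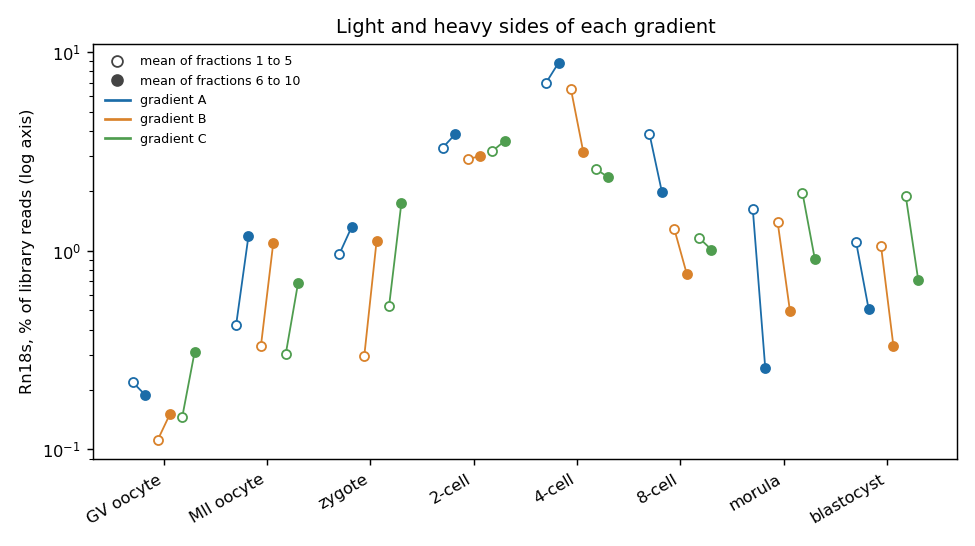
Mean share of Rn18s reads (percent, log axis) over fractions 1 to 5 (open circles) and 6 to 10 (filled circles) of each gradient, joined by a line, with colours for gradients A, B and C. Lines rise in all MII oocyte and zygote gradients and fall in all 8-cell, morula and blastocyst gradients.

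By limma, with sides as unpaired groups, the difference was called in morulae alone (-1.75 ± 0.46, adjusted p = 0.0138; 5.81% of genes were called). It was 1.47 ± 0.46 in MII oocytes (adjusted p = 0.0752; 3.23%), 1.37 ± 0.46 in zygotes (adjusted p = 0.104; 3.01%) and -1.39 ± 0.46 in blastocysts (adjusted p = 0.121; 2.74%). With the gradient as a block these 3 were called too, at limma adjusted p-values of 0.00329, 0.00669 and 0.00532. The values for GV oocytes (0.44, adjusted p = 1; 0.0725%), 2-cell (0.15, adjusted p = 0.931; 18.2%), 4-cell (-0.29, adjusted p = 0.816; 16.3%) and 8-cell embryos (-0.64, adjusted p = 0.507; 9.05%) were not called with or without the block. The morula call was lost without letter A (-1.30, adjusted p = 0.138), without letter B (-1.88, adjusted p = 0.127) and, in an alternative chosen after seeing the data, without fraction 1 (-1.59, adjusted p = 0.0892). Without fraction 1 the MII (2.15, adjusted p = 0.014) and zygote values (2.10, adjusted p = 0.0133) were called, and the GV value was 1.73 (adjusted p = 0.173). Against fractions 1 and 2 alone, the GV value turned to -0.54. The change of this difference between consecutive stages was tested directly, and limma called 0 of 7 differences, with 0 at an unadjusted p under 0.05; the nearest, zygote to 2-cell, was -1.23 ± 0.66 (adjusted p = 0.36). In stage order, 0.185, 0.0198, 4.65, 11.7, 2.47, 0.534 and 0.0198% of genes were called for these differences.

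The profile of the 18S share was also summarised as the CPM-weighted mean fraction number, where a flat profile gives the middle of the gradient. It weights shares of separately scaled libraries and does not measure how the amount of 18S RNA was distributed. The values were 4.94, 5.43 and 6.30 in GV oocytes, 6.92, 6.80 and 6.64 in MII oocytes and 5.70, 7.13 and 7.23 in zygotes. They were 5.67, 5.01 and 5.66 at the 2-cell, 5.66, 4.4 and 5.26 at the 4-cell and 4.87, 5.07 and 5.19 at the 8-cell stage. They were 3.15, 4.26 and 4.42 in morulae and 4.12, 3.95 and 4.15 in blastocysts. The 9 gradients of oocytes and zygotes averaged 6.34 ± 0.81 (SD) and the 15 gradients from the 2-cell stage on 4.72 ± 0.73, a difference of -1.62 fractions (exact two-sided permutation test, p = 6.81e-05, adjusted over 8 comparisons 0.000545). That test treats the gradients of 1 stage as independent. Over the 8 stage means, an alternative added after seeing the data, the exact two-sided p was 0.0179, the smallest that 56 arrangements allow, and 0.143 adjusted over 8. The groups overlapped, since 2 GV gradients lay within the range of the later stages. Between consecutive stages, with 3 gradients against 3, an exact permutation test cannot go below p = 0.1. That smallest value was met from GV to MII oocytes (1.23), zygote to 2-cell (-1.24) and 8-cell to morula (-1.10), where the groups did not overlap (adjusted p = 0.2 each, exact test).

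**Figure D3:**
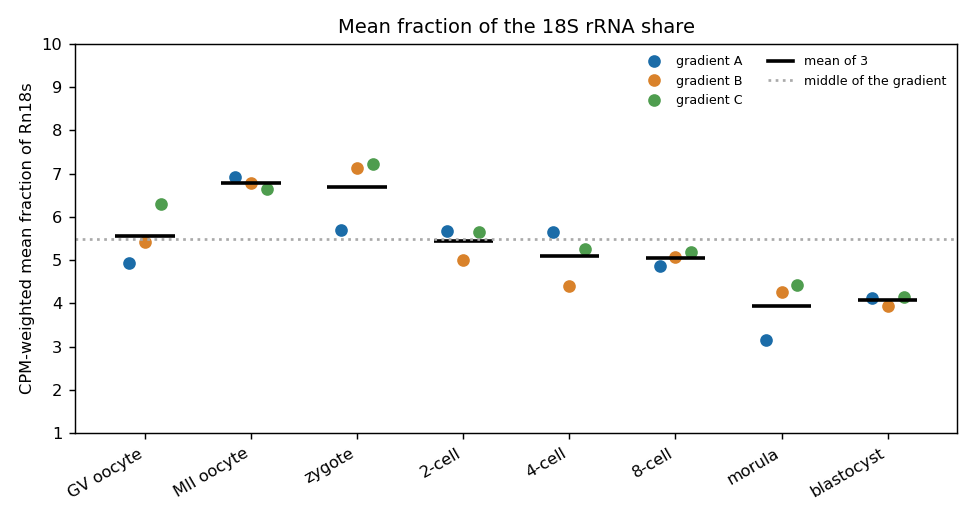
CPM-weighted mean fraction of Rn18s in each gradient (points, gradients A to C) with the mean of 3 (black bar) for 8 stages; the dotted line is the middle of the gradient. The mean runs from 6.79 in MII oocytes to 3.95 in morulae.

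In the transcriptome libraries, made without fractionation, 18S RNA rose with development. GV oocyte pools A to D had 0.0165, 0.0147, 0.0137 and 0.0123%, MII oocyte pools 0.0432, 0.0311, 0.0211 and 0.0383%, and zygote pools 0.0599, 0.0533, 0.0871 and 0.0626%. These 3 stages did not overlap. The 2-cell libraries, whose columns are lettered E to H, had 0.0494, 0.0415, 0.0558 and 0.0409%, which overlapped the zygote range. Values were then above 0.5% in every library. The 4-cell pools had 0.572, 1.31, 0.534 and 0.549%, the 8-cell pools 1.17, 1.57, 0.963 and 0.538%, and the morula pools 3.79, 0.861, 1.31 and 1.49%. These 3 stages overlapped each other, with pool B high among 4-cell and pool A high among morula libraries. Blastocyst pools had 5.74, 11.2, 6.97 and 3.84%, all above the highest morula pool.

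**Figure D4:**
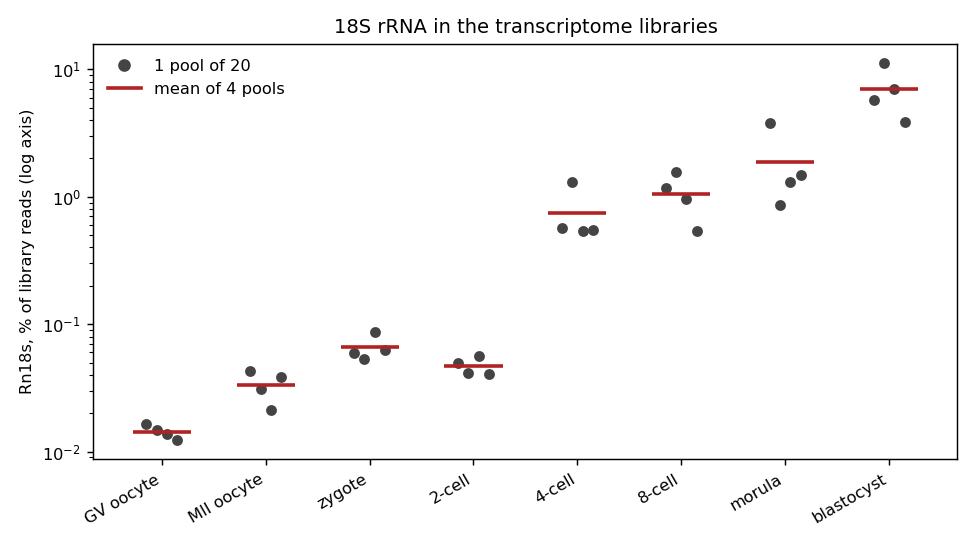
Share of transcriptome reads from Rn18s (percent, log axis) in the 4 pools of 20 oocytes or embryos per stage (points) with their mean (bar). The mean runs from 0.0143% in GV oocytes to 6.95% in blastocysts, with the widest step between the 2-cell and the 4-cell stage.

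By limma on log2(CPM + 1), 18S RNA rose from GV to MII oocyte (1.18 ± 0.33, adjusted p = 0.00247; 34.5% of genes were called), from the 2-cell to the 4-cell stage (3.88 ± 0.33, adjusted p = 4.91e-13; 64.8%) and from morula to blastocyst (2.02 ± 0.33, adjusted p = 3.99e-06; 26.8%). The mean shares differed 2.34-, 15.8- and 3.73-fold in these 3 steps. From MII oocyte to zygote the change of 0.998 ± 0.33 had an adjusted p of 0.0208 and just missed the required fold (10.3% of genes were called), and it was called by edgeR (1.04, adjusted p = 0.0243; 15% of genes called) and without letter A (1.17), B (1.07) or D (1.10). The changes from zygote to 2-cell (-0.47, adjusted p = 0.223; 33.9%), 4-cell to 8-cell (0.53, adjusted p = 0.333; 2.6%) and 8-cell to morula (0.69, adjusted p = 0.113; 11.9%) were not called, though the last was without letter B (1.21, limma adjusted p = 0.00388). From GV oocyte to blastocyst the rise was 8.82 ± 0.33 (limma adjusted p = 2.75e-23; 69.1% of genes were called), a 486-fold difference of mean shares.

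The mean of the 10 fractions was 0.187% ± 0.051 (SD over 3 gradients) in GV oocytes, 0.669% ± 0.158 in MII oocytes, 0.994% ± 0.248 in zygotes and 3.29% ± 0.32 in 2-cell embryos. It was highest in 4-cell embryos, at 5.06% ± 2.73, and then 1.68% ± 1.08 at the 8-cell stage, 1.10% ± 0.28 in morulae and 0.933% ± 0.320 in blastocysts. Relative to the transcriptomes of the same stage, fractions were 70.2-fold higher at the 2-cell stage, 13.1-fold in GV oocytes and 20.0-fold in MII oocytes. From the GV oocyte to the 4-cell stage, 29 or 30 of the 30 fraction libraries of each stage lay above the highest transcriptome library. In blastocysts all 30 lay below the lowest one, with a ratio of means of 0.134.

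On the light side, 18S RNA rose from zygote to 2-cell by 2.56 ± 0.43 (limma adjusted p = 0.000201; 17.8% of genes were called), from 0.963, 0.294 and 0.524% to 3.30, 2.90 and 3.17%. The groups did not overlap. It fell from 4-cell to 8-cell by -1.45 ± 0.43 (limma adjusted p = 0.0459; 6.09%), where the gradients overlapped. The call was lost without letter B (-1.0, adjusted p = 0.36), without letter C (-1.60, adjusted p = 0.12) and, in the added alternative, without fraction 1 (-1.38, adjusted p = 0.118). From GV to MII oocyte the light side changed by 1.19 ± 0.43 (adjusted p = 0.111; 6.64%), from MII oocyte to zygote by 0.61 (3.36%), from 2-cell to 4-cell by 0.65 (44.5%), from 8-cell to morula by -0.13 (13.8%) and from morula to blastocyst by -0.34 (1.16%), none of them called. From GV oocyte to blastocyst it rose by 3.09 ± 0.43 (limma adjusted p = 3.49e-06; 49.9%).

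On the heavy side, from GV to MII oocyte, values went from 0.188, 0.151 and 0.311% to 1.18, 1.09 and 0.688%, with no overlap, a rise of 2.22 ± 0.46 (limma adjusted p = 0.00609; 4.06% of genes were called). The call was lost without letter B (1.90, adjusted p = 0.244). From zygote to 2-cell, values went from 1.32, 1.12 and 1.74% to 3.85, 2.98 and 3.57%, also without overlap (1.33 ± 0.46, adjusted p = 0.0447; 20.8%). This call was lost without any 1 of the 3 letters (adjusted p from 0.0745 to 0.235). From 4-cell to 8-cell the heavy side fell from 8.80, 3.13 and 2.34% to 1.98, 0.767 and 1.01%, without overlap (-1.80 ± 0.46, adjusted p = 0.0219; 6.54%), and the call was lost without letter A (-1.62, adjusted p = 0.0665), without B (-1.68, adjusted p = 0.222) and in a fit of these stages alone (adjusted p = 0.189). Other steps were not called: MII to zygote (0.51; 1.49% of genes called), 2-cell to 4-cell (0.22; 37.8%), 8-cell to morula (-1.24, adjusted p = 0.111; 7.98%) and morula to blastocyst (0.02; 0.0757%). From GV oocyte to blastocyst the heavy side rose by 1.26 ± 0.46 (adjusted p = 0.0295; 46.1%), a call lost without any 1 letter (adjusted p from 0.0531 to 0.143).

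**Figure D5:**
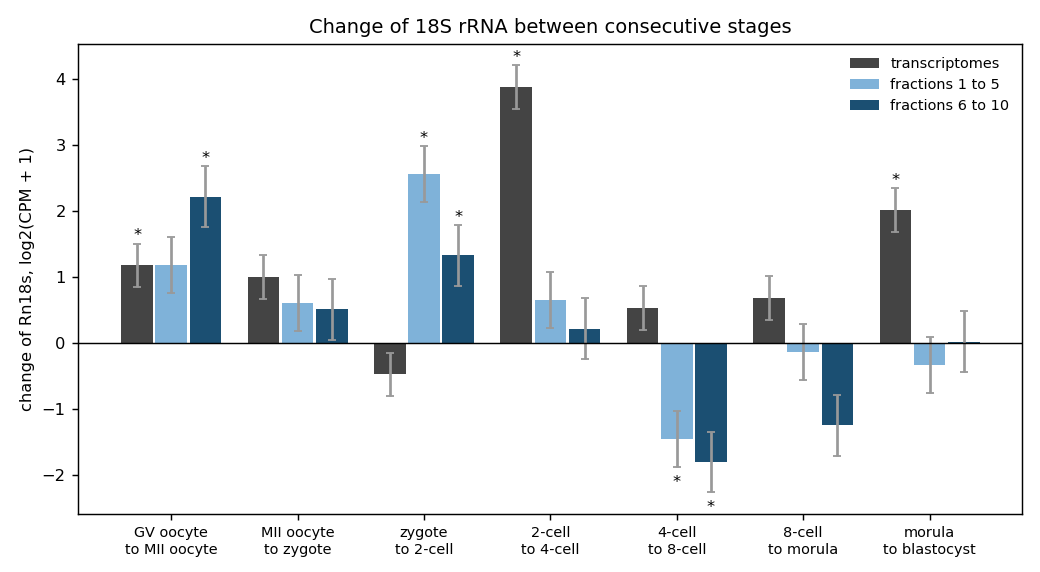
Change of Rn18s on the log2(CPM + 1) scale between consecutive stages in transcriptomes, light fractions and heavy fractions (bars, with SE); asterisks mark changes with an adjusted p under 0.05 and a size of at least 1. The transcriptome step of 3.88 from 2-cell to 4-cell stands beside fraction changes of 0.65 and 0.22.

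Fraction by fraction, the rise from GV to MII oocyte was called in fractions 7 (2.31, limma adjusted p = 0.0479; 2.34% of genes were called), 8 (2.42, adjusted p = 0.0368; 2.04%) and 10 (2.22, adjusted p = 0.0498; 3.35%), and the estimate was positive in all 10. None of these 3 calls remained without letter A, B or C. The rise from zygote to 2-cell was called in fractions 1 (1.90, limma adjusted p = 0.0493; 14.2%), 2 (2.75, adjusted p = 0.00774; 3.58%), 3 (2.67, adjusted p = 0.00978; 4.55%), 4 (2.64, adjusted p = 0.00613; 9.82%), 5 (3.56, adjusted p = 8.61e-05; 16.7%) and 6 (2.73, adjusted p = 0.00228; 20.8%). Fractions 5 and 6 stayed called without any 1 letter, fractions 1, 2 and 3 were lost without B and without C, and fraction 4 was lost without B (2.10, adjusted p = 0.185). From 4-cell to 8-cell all 10 estimates were negative, and fractions 7 (-2.53, limma adjusted p = 0.0121; 6.19%) and 8 (-2.32, adjusted p = 0.0244; 5.92%) were called. Both were lost without letter B, and fraction 8 stayed called in only 1 of the 3 fits that left a letter out. From 8-cell to morula only fraction 6 was called (-2.72, limma adjusted p = 0.00696; 4.55%), and it was not without letter A (-1.32, adjusted p = 0.404). No fraction was called by limma from MII oocyte to zygote, 2-cell to 4-cell or morula to blastocyst, with 0, 2 and 1 of 10 at an unadjusted p under 0.05. Over the 70 comparisons of a fraction between stages, between 0.0773 and 24.9% of genes were called.

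The difference between the heavy-side change and the transcriptome change was tested as an interaction. From zygote to 2-cell, 18S RNA rose on the heavy side while the transcriptome value did not rise (1.80 ± 0.59, limma adjusted p = 0.0191; 27.5% of genes were called), a call lost without transcriptome letter C (1.66, adjusted p = 0.0594). From 2-cell to 4-cell the transcriptome rose by more than the heavy side (-3.66 ± 0.59, adjusted p = 4.63e-06; 31.8%). From 4-cell to 8-cell the heavy side fell while the transcriptome estimate was positive (-2.33 ± 0.59, adjusted p = 0.00558; 13.7%). Both calls held without any 1 letter. From 8-cell to morula the difference was -1.93 ± 0.59 (adjusted p = 0.0387; 6.45%), lost without heavy-side letter A (-1.08, adjusted p = 0.281) and without transcriptome letter A, C or D (adjusted p = 0.188, 0.0915 and 0.168). From morula to blastocyst it was -2.0 ± 0.59 and not called (adjusted p = 0.0624; 2.2%). From GV to MII oocyte (1.04, adjusted p = 0.389; 8.22%) and from MII oocyte to zygote (-0.49, adjusted p = 0.917; 2.28%) no difference was called.

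The other genes of ribosome production are given beside these steps, by lists of gene families and complexes, which were chosen with earlier results of these data known. The subunit lists are the measured genes whose symbols match the naming of these proteins, 34 of the 40S and 53 of the 60S subunit. They are complete by construction only, and a gene whose symbol has another form is left out. Of genes listed by symbol, 15 of RNA polymerase I and its factors and 60 of small subunit processing were measured. The processing list holds Faf1 and Mterf4, whose part in 18S processing is not established. The libraries are of polyA RNA, so at every step a change in mRNA level and one in poly(A) tails cannot be told apart. From GV to MII oocyte, the step where 18S RNA rose, 0 of 34 mRNAs of 40S proteins rose and 27 fell in transcriptomes by limma (median -3.30, against -0.11 over all genes, of which 9.11% rose and 25.3% fell), led by Rps13 (-6.41, adjusted p = 1.07e-28). Processing factors gave 6 higher and 22 lower of 60 (median -0.63), from Nol10 (1.24), a nucleolar factor, to Emg1 (-6.01), the methyltransferase that modifies 18S RNA. Of the polymerase I list 1 rose, Polr1f (1.27), and 4 fell, led by the subunit Polr1h (-5.60).

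From zygote to 2-cell, where 18S RNA did not rise in transcriptomes, 28 of the 34 mRNAs of 40S proteins rose and 1 fell (median 2.15, against 0.37 over all genes, of which 25.2% rose and 8.71% fell), with Rps19 (5.24) at one end and Rack1 (-1.31) at the other. In the polymerase I list 9 of 15 rose and 2 fell (median 1.48), from Polr1c (3.51), a subunit shared with RNA polymerase III, to Taf1b (-2.01). Among processing factors 20 of 60 rose and 11 fell (median 0.23), from Nol11 (4.09) to Dnttip2 (-4.37). From 2-cell to 4-cell, the widest transcriptome step of 18S RNA, 33 of 34 (median 4.68), 52 of 53 (median 4.59), 15 of 15 (median 2.77) and 55 of 60 (median 2.82) rose in the same order of lists, against a median of 0.02 over all genes, of which 31.8% rose and 32.9% fell. The largest rises were those of Rps27 (5.93), Rpl38 (6.48), Ubtf (4.24), which binds the ribosomal DNA promoter, and Tbl3 (4.92), and Riok1, a kinase of late 40S maturation, was the only one of these that fell (-1.90).

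From morula to blastocyst, where 18S RNA rose again, the 40S protein mRNAs as a list did not rise with it. For the polymerase I and processing lists only falls are given at this step, and the 60S list is not given. Of 40S protein mRNAs 1 rose (Rps2, 1.04) and none fell (median -0.22, against 0.16 over all genes, of which 18.8% rose and 7.97% fell), 3 of 15 in the polymerase I list fell, led by Taf1a (-1.80), and 9 of 60 processing factors fell, led by Dcaf13 (-1.99). At the fall of 18S RNA on the heavy side from 4-cell to 8-cell, 0 of 34 mRNAs of 40S proteins were called on that side, where 6.54% of all genes were (median 0.28, against 0.30 over all genes).

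Other RNAs that work without being translated were compared by their peak fraction. Of 18 such symbols sought, 4 besides the 18S pair were in the table. Rn7s1 and Rn7s2, copies of the 7SL RNA of the signal recognition particle, were highest in fraction 1 in 23 and 22 of 24 gradients, Rn7sk in 23 and Bc1, a short RNA made by RNA polymerase III, in 22. All exceptions were GV gradients, where fraction 1 was the peak in 2, 1, 2 and 1 of 3 for Rn7s1, Rn7s2, Rn7sk and Bc1. Fraction 1 of GV gradients A and B held only 0.0102 and 0.0231 M reads. Rn18s was highest in fraction 1 in 8 of 24. In GV oocytes, MII oocytes and zygotes the 4 other RNAs also rose from fraction 4 to fraction 10. The ratio of means in these 3 stages was 61.9, 10.4 and 40.0 for Rn7s1 and 58.0, 13.0 and 43.6 for Rn7s2. It was 13.9, 10.2 and 14.8 for Rn7sk and 10.5, 7.70 and 3.28 for Bc1, which had at most 2.92 CPM there in fraction 10. Rn18s went from 0.0435 to 0.261%, 0.177 to 1.29% and 0.353 to 2.15%, so the rise was not particular to it. At the 2-cell stage Rn7s2 had 10456 ± 2333 CPM (SD, n = 3) in fraction 1, and its highest mean elsewhere was 203 CPM, in fraction 10, whereas the mean share of Rn18s outside fraction 1 reached 4.66%, in fraction 5.

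The genes whose pattern was most like that of 18S RNA were found by Pearson's r of log2(CPM + 1), as a description. Over the 80 means of stage and fraction, which share libraries and the relative scale of CPM, the highest r among 14368 genes were those of Lars2 (0.82), ND2 (0.81), ND5 (0.79), CYTB (0.79) and Mir6236 (0.76), while the median gene had -0.30. Lars2 encodes the mitochondrial leucyl-tRNA synthetase, ND2, ND5 and CYTB are proteins of the respiratory chain encoded in mitochondrial DNA, and Mir6236 is listed as a microRNA gene. Lars2 on the heavy side rose from 508 ± 165 CPM in GV oocytes to 1561 ± 223 CPM in MII oocytes and 10980 ± 2638 CPM at the 2-cell stage, and was 274 ± 226 CPM in blastocysts. In transcriptomes Lars2 went from 15.3 ± 1.4 CPM (SD, n = 4) in GV oocytes to 2849 ± 970 CPM in blastocysts, with 146 ± 28 CPM at the 2-cell stage. Which molecules the reads of the Lars2 and Mir6236 rows came from was not tested. Over the 32 transcriptome libraries the highest r among 8665 genes were those of Nucks1 (0.98), Atxn7l3b (0.97), H4c4 (0.97), Ddah1 (0.97) and Rpl13a (0.97), with a median of 0.22. Nucks1, a chromatin-associated protein, had 6.61 ± 1.39 CPM in GV oocytes, 16.2 ± 4.0 CPM in 2-cell, 87.7 ± 19.7 CPM in 4-cell embryos and 371 ± 39 CPM in blastocysts.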

How the data were processed

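RNA of gradient fractions and of whole pools was sequenced. The submitters' processing notes name Trim Galore 0.6.7, FastQC, HISAT2 2.2.1, featureCounts 2.0.1, edgeR and the build GRCm39; strand setting and annotation are not given in the sources used here. The authors deposited CPM per symbol, with 159 symbols in 76 groups of identical values, each counted once. With copies in, 38 columns sum to over 1 M, and 9 of them were recorded as signal, as deposited; with copies dropped 0 do, and all were used as CPM. Of the total implied by CPM steps, 1.10 to 20.9% is not in the table. All values were whole reads within 0.05 in all 272 libraries.

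Genes reaching a CPM of 1 in as many libraries as the smallest group holds were tested with limma 3.58.1 (R 4.3.3) on log2(CPM + 1) in fits of all groups, called at a Benjamini-Hochberg adjusted p under 0.05 and a change of at least 1. edgeR 4.0.16 on recovered reads, pseudocounts, filters, scaling without ribosomal RNA, other fraction windows, a gradient block and leaving out each replicate letter were alternatives; leaving out fraction 1 and testing stage means were added after seeing the data. The edgeR fit of the fractions left out the library of fraction 7 of 2-cell gradient B. The scripts were tested on simulated data, where the F test across fractions over-called genes of low level. Heavy and light sides of 1 gradient come from the same lysate and so are paired; their deviations correlated at 0.00776 to 0.253 (median 0.0973, 24 pairs). The exact permutation test used scipy 1.17.1. Named genes were Rn18s, the 5 most correlated genes in each comparison of patterns, the largest called rise and fall of each list and the structural RNAs found by symbol. Markers, Faf1 and Mterf4 are named besides. The members and lists were chosen with earlier results of these data known.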

Additional observations from a re-analysis of the deposited data

Results flagged for a closer look

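In the 4-cell transcriptomes, pool B stood apart from the other 3 for Rn18s, at 1.31% against 0.534 to 0.572%. Its gap to the nearest pool was 0.951 of the range of the 4, past the limit of Dixon's test; chance singles out about 1 in 20 such groups.

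The change of Rn18s in heavy fractions differed from that in transcriptomes at 4 steps by limma's interaction test: 1.80 from zygote to 2-cell (adjusted p = 0.0191), -3.66 from 2-cell to 4-cell (adjusted p = 4.63e-06), -2.33 from 4-cell to 8-cell (adjusted p = 0.00558) and -1.93 from 8-cell to morula (adjusted p = 0.0387).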

How the results depend on the processing

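Of 721 values under alternatives for the results that answer a comparison, 644 kept their direction and their side of the threshold, 34 lost and 29 gained a call, and 14 turned direction; the causes were not tested. Depth limits fraction 1 most, and letters shared between stages are only letters.

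Leaving out the replicates of 1 letter at every stage gave these ranges where a call or a direction changed. The transcriptome change was 0.65 to 1.17 from MII oocyte to zygote and 0.35 to 1.21 from 8-cell to morula. The range along the fractions was 3.26 to 4.01 in GV oocytes, 2.64 to 3.69 in zygotes, 1.61 to 2.36 in 2-cell embryos, 1.78 to 3.76 in morulae and 3.33 to 4.63 in blastocysts. Heavy against light was 1.09 to 1.83 in zygotes, -0.59 to 0.10 in 4-cell embryos and -2.07 to -1.30 in morulae, and its change was -0.42 to 0.37 from MII oocyte to zygote, -0.68 to 0.12 from 4-cell to 8-cell and -0.23 to 0.68 from morula to blastocyst. The heavy-side change was 1.90 to 2.76 from GV to MII oocyte, 1.22 to 1.48 from zygote to 2-cell, -0.27 to 0.63 from 2-cell to 4-cell, -2.09 to -1.62 from 4-cell to 8-cell, -0.46 to 0.32 from morula to blastocyst and 1.17 to 1.32 from GV oocyte to blastocyst. The light-side change was -1.74 to -1.0 from 4-cell to 8-cell and -0.57 to 0.44 from 8-cell to morula. The heavy change beyond the transcriptome change was 1.66 to 1.95 from zygote to 2-cell, -2.47 to -1.08 from 8-cell to morula and -2.48 to -1.43 from morula to blastocyst. The mean fraction changed by -0.44 to 0.46 from MII oocyte to zygote, -0.43 to 0.30 from 4-cell to 8-cell and -0.29 to 0.35 from morula to blastocyst.

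With the gradient as a replicate block, calls were gained along the fractions at the 2-cell (1.67) and 8-cell stage (1.89) and for heavy against light in MII oocytes (1.47), zygotes (1.37) and blastocysts (-1.39). Calls of single fractions also changed, as given above, and no other call along the fractions or for heavy against light did. Letters between stages pair nothing by design, and same-letter heavy deviations of consecutive stages correlated at -0.0604 to 0.0896. No paired analysis was possible for transcriptome changes to or from the 2-cell stage because those columns carry letters that the other stages lack.

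Fitting only the groups compared gained calls along the 2-cell fractions (1.67), for heavy against light in MII oocytes (1.47), zygotes (1.37) and blastocysts (-1.39) and for the light side from GV to MII oocyte (1.19), and lost those from 4-cell to 8-cell on the heavy (-1.80) and light side (-1.45). Averaging log values over fractions gained heavy against light in MII oocytes (1.81) and zygotes (1.55), the light side from GV to MII oocyte (1.51) and the interaction from morula to blastocyst (-2.08), and turned the heavy change from morula to blastocyst to -0.0649. A pseudocount of 5 gained that interaction (-2.0) and lost the heavy change from zygote to 2-cell (1.33). Without a filter on low values that heavy change (1.33) and the light change from 4-cell to 8-cell (-1.45) were lost. Taking fractions 7 to 10 as heavy lost the changes from zygote to 2-cell (1.08) and from GV oocyte to blastocyst (1.07) and turned that from morula to blastocyst to -0.13. Taking fractions 1 and 2 as light turned the GV value to -0.54 and the 4-cell to 8-cell difference to 0.075, and gained blastocysts (-1.75). Without fraction 1, heavy against light was gained in MII oocytes (2.15) and zygotes (2.10) and lost in morulae (-1.59), and the light change was gained from GV to MII oocyte (1.80) and lost from 4-cell to 8-cell (-1.38). edgeR gained the transcriptome change from MII oocyte to zygote (1.04) and the 4-cell range (4.29) and lost the GV range (2.59). With stage means as units, the difference in mean fraction between early and later stages (-1.62) lost its call.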
